A study of Mus musculus with 5375 samples.

Results

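The expression of 6 genes linked to blood flow was followed in endothelial cells (ECs) and tumour cells (TCs) of mouse lungs during early metastatic seeding. These were 4 zinc finger transcription factors of the Kruppel-like family, Klf2, Klf4, Klf6 and Klf10, the endothelial nitric oxide synthase gene Nos3 and Edn1, which encodes the precursor of endothelin-1. They were taken by name, and all 6 were present among the 35308 genes of the EC tables and the 35299 genes of the TC tables. Female wild-type BALB/c mice, 8 to 12 weeks old, received 2 intravenous injections of 4T1-GFP cells, a BALB/c breast cancer line carrying a fluorescent protein and stained with the division dye CellTrace. ECs were sorted as CD45- PDPN- LYVE- TER119- CD31+ cells from 4 uninjected animals (day 0) and from 3 animals each at days 1.5 and 3.5 after injection. TCs of day 1.5 were sorted as intravascular or extravascular according to an anti-H-2Kd antibody given into the blood before sampling, 4 animals contributing to both gates. TCs of day 3.5 were sorted as latent (LTCs, dye retained, 4 animals) or proliferative (dye diluted). The proliferative cells have 4 replicates in the labels but all carry 1 animal, that of latent replicate 4, in the deposited annotation, and so were used as 1 pool, as were the leftover uninjected cells from culture.

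Laminar shear stress on the vessel wall activates a kinase cascade, MEK5 to ERK5, which acts through MEF2 factors to raise Klf2 and Klf4. In ECs these factors promote a quiescent, anti-inflammatory state, raise Nos3, whose product makes the vasodilator nitric oxide, and restrain Edn1, whose product is a strong vasoconstrictor. Klf2, Klf4, Klf6 and Klf10 are also quickly induced by growth factors, stress or TGF-beta in many other cell types, epithelial cells among them.

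The regions upstream of Klf2, Klf4 and Klf6 are shown because transcripts of these genes increased together in LTCs (below), and because the classical route from flow to Klf2 runs through MEF2. The sequences are from RefSeq on GRCm38.p6, 5' to 3' on the strand of the gene, and end at the base before the RefSeq start of the gene or, for Klf2 and Klf6, before the GENCODE start, which lies further upstream. Capitals mark the MEF2-type motif (CTA, any 4 bases, TAG) and the GC box GGGCGG, both searched on both strands.
Klf2, chr8:72318812-72319032, + strand: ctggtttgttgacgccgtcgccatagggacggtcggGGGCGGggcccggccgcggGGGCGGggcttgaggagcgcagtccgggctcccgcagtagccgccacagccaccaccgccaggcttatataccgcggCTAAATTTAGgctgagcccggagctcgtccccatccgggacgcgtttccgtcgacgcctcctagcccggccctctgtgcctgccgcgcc
Klf4, chr4:55532476-55532725, - strand: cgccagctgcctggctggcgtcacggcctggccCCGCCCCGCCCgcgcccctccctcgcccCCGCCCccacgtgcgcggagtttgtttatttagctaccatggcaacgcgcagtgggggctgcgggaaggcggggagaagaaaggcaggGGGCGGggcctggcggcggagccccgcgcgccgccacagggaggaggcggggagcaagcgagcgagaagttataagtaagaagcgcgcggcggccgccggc
Klf6, chr13:5861239-5861481, + strand: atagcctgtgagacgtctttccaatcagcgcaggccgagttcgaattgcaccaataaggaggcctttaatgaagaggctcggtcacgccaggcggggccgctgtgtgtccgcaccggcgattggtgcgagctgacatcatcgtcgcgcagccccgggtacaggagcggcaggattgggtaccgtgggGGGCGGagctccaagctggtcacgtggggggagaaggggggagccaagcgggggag
The Klf2 window held 1 MEF2-type motif, which began 89 bases from the window's end, and 2 GC boxes, which began 185 and 166 bases from it. In the Klf4 window there were 4 GC boxes, 3 of them read on the other strand, and the 2 most distant shared a base. The Klf6 window held 1 GC box, which began 56 bases from its end, and the 250 bases upstream of Edn1 (chr13:42301226-42301475, + strand) held neither motif. The AP-1 motif TGANTCA was in none of these 4 windows. Among 32851 promoter windows of the same table, 3.2% held the MEF2-type motif, 32.7% the GC box and 6.75% the AP-1 motif. Such matches describe letters and were not tested for binding. RefSeq sequences were matched for 4 of the 6 genes, and those of Klf10 and Nos3 were not used here.

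In GRCm38 the genes lie at chr8:72319033-72321656 (Klf2, ENSMUSG00000055148, + strand), chr4:55527143-55532466 (Klf4, ENSMUSG00000003032, - strand), chr13:5861482-5870394 (Klf6, ENSMUSG00000000078, + strand), chr15:38291463-38300706 (Klf10, ENSMUSG00000037465, - strand), chr5:24364810-24384474 (Nos3, ENSMUSG00000028978, + strand) and chr13:42301476-42307990 (Edn1, ENSMUSG00000021367, + strand). All 6 are protein coding. The 4 Klf genes overlap no other annotated gene. Nos3 overlaps the antisense gene Gm15587 and Atg9b, an autophagy gene on the opposite strand, and Edn1 overlaps the antisense gene Gm47118. Since the libraries carry no strand information, reads from a stretch that such genes share cannot be told apart.

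In the deposited data the authors kept 2479 of 3455 sorted ECs and 1566 of 1920 sorted TCs, a TC count slightly different from the paper's. Summed per animal, the 10 EC libraries held 180 to 335 cells and 75.6 to 130 M reads (M, mega), of which 2293 cells were in the capillary table and the remaining 186 cells (8 to 34 per animal, 4.11 to 11.1 M reads) are called non-capillary. TC libraries of the 3 gates with 4 animals held 69 to 85 cells and 31.9 to 49.9 M reads, the proliferative pool 237 cells and 163 M reads, and the culture pool 369 cells and 92.1 M reads. Levels are given as CPM (read counts scaled to a common library total), and as CPM per kilobase of exons where different genes are compared. The cells matched their labels: 12 endothelial markers summed to 12335 to 19684 CPM in EC libraries and 37.0 to 75.5 CPM in sorted TC libraries, and 7 tumour markers to 1.97 to 17.5 CPM and 2735 to 6435 CPM. Among the 13 sorted TC libraries, the endothelial markers Kdr and Emcn were above 0 in 4 and 3. Pecam1 was present in all 13 (4.04 to 12.5 CPM, with a read in 67.5 to 96.2% of cells). Flt1 (16.8 to 34.5 CPM), Egfl7 (8.35 to 20.3 CPM) and Tie1 (1.92 to 13.2 CPM) were also above 0 in all 13. Immune markers summed to 3.37 to 50.8 CPM in ECs and 2.83 to 255 CPM in sorted TCs, highest in a latent library. The lymphatic list (348 to 1276 CPM in ECs) was carried by Lyve1 and Flt4 with Prox1 at up to 1.60 CPM, and the lung epithelial list (648 to 1176 CPM) by Hopx. The mural and stromal list reached at most 34.1 CPM in the libraries of all ECs and 17.1 CPM in sorted TCs. In capillary and non-capillary libraries apart it reached 36.5 and 234 CPM.

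Within ECs, Klf2 had the highest level per length of the 6 genes. Its median over the 10 libraries was 209 CPM per kb (120 to 336), above the highest Klf4 library. Klf4 (median 83.7, range 58.8 to 104 CPM per kb) and Edn1 (67.1, 45.8 to 113) overlapped. Klf6 (29.8, 13.1 to 49.0), Klf10 (14.9, 4.71 to 36.5) and Nos3 (8.40, 2.54 to 21.2 CPM per kb) followed, each overlapping its neighbour. Detection in single cells followed a similar order: 69.1% of the 2479 ECs had a Klf2 read, 47.2% a Klf4 read, 37.4% a Klf6 read, 34.2% an Edn1 read, and 13.5% a Nos3 read, while 497 cells had a Klf10 read. The reads were concentrated in few cells. The tenth of cells with most reads held a median of 77.4% of Klf2 reads per library and 99.8% of Nos3 reads, so that the level of Nos3 in a library rested on a small number of cells.

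Klf2, the best studied flow-induced factor of the endothelium, was higher in ECs of both later days than in uninjected animals, without passing the test across all genes. Its level was 365, 270, 222 and 264 CPM in the 4 animals of day 0, 563, 497 and 392 CPM on day 1.5, and 574, 380 and 621 CPM on day 3.5. Every later animal was above every day 0 animal, and the 2 later days overlapped. The means were 280 ± 60.4 CPM (SD, n = 4), 484 ± 86.1 (n = 3) and 525 ± 128 (n = 3). The log2 fold change against day 0 was 0.74 ± 0.24 (SE) on day 1.5 (p = 0.0119, adjusted p = 0.512 by edgeR) and 0.84 ± 0.24 on day 3.5 (p = 0.00564, adjusted p = 0.408). Between the later days it was 0.11 ± 0.26. Day 0 animals 1 and 2 were sorted together with day 1.5 and animals 3 and 4 with day 3.5. Within these sort days Klf2 was 270 to 365 CPM against 392 to 563 CPM, and 222 to 264 CPM against 380 to 621 CPM. With the sort day as a term the log2 fold changes were 0.56 ± 0.29 and 1.04 ± 0.30, neither of which passed. In thinned cells (100000 reads drawn from each) a Klf2 read was expected in 50.9 ± 7.10% of cells on day 0, 63.5 ± 7.58% on day 1.5 and 65.4 ± 11.1% on day 3.5. The unthinned means were 59.0%, 75.5% and 73.1%. Thinning left out 115, 86 and 131 cells under 100000 reads. The median number of genes detected per cell was also higher on the later days, with libraries at 1951 to 2515 on day 0, 2097 to 2973 on day 1.5 and 2313 to 2973.5 on day 3.5, and its part in the Klf2 values was not tested.

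**Figure D1:**
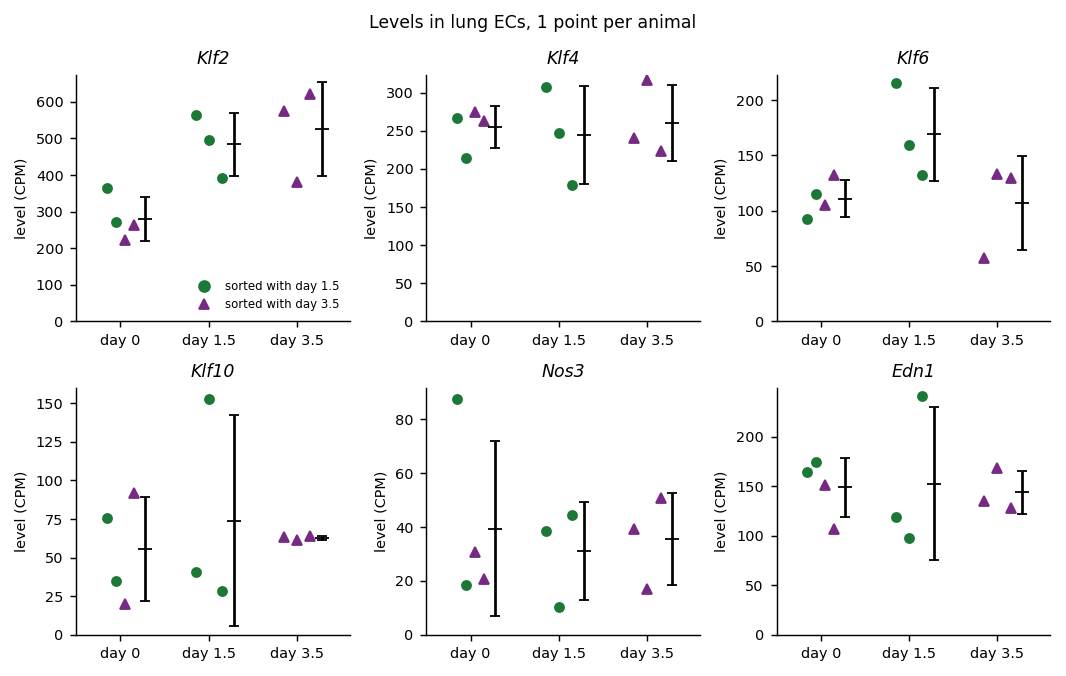
Level of each gene in all ECs (CPM, y axis, separate scale per panel) by day after injection, with 1 point per animal (circles sorted with day 1.5, triangles with day 3.5) and a dash with error bars beside them for the mean and SD. Klf2 is the gene whose later animals, 380 to 621 CPM, all lie above the day 0 animals, 222 to 365 CPM, on both days.

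Klf4, the closest relative of Klf2 in the response to flow, did not follow it in the summed counts. Its level was 267, 215, 275 and 263 CPM on day 0, 308, 248 and 179 CPM on day 1.5, and 241, 317 and 224 CPM on day 3.5. The 3 days overlapped, with log2 fold changes against day 0 of -0.11 ± 0.24 and -0.03 ± 0.24. The share of thinned cells with a Klf4 read, in contrast to its level, had means of 32.2 ± 3.88%, 39.5 ± 3.55% and 44.3 ± 5.12% (unthinned 41%, 50.4% and 51.3%). The direction depended on the scale: the mean over cells of log2(CPM + 1) was higher by 0.53 ± 0.33 and 0.74 ± 0.33 on days 1.5 and 3.5 (limma adjusted p = 0.753 and 0.309, unadjusted p = 0.124 and 0.0355), and that of the deposited log10 values, put on the log2 scale, by 0.89 ± 0.36 and 0.90 ± 0.36 (limma adjusted p = 0.258 and 0.224, unadjusted p = 0.023 and 0.0222).

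Klf6, a factor induced by injury and stress in many cell types, was 92.5, 115, 105 and 132 CPM on day 0. On day 1.5 it was 215, 160 and 133 CPM, just above the day 0 animals, and on day 3.5 it was 57.6, 134 and 129 CPM, overlapping them. The log2 fold change was 0.55 ± 0.33 on day 1.5 (edgeR adjusted p = 0.704) and -0.13 ± 0.33 on day 3.5. Klf10, an early target of TGF-beta, ranged from 19.7 to 92.1 CPM on day 0, 28.6 to 153 CPM on day 1.5 and 61.3 to 63.7 CPM on day 3.5. The days overlapped throughout (log2 fold changes 0.35 ± 0.64 and 0.10 ± 0.64).

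Nos3 was 87.7, 18.5, 30.9 and 20.8 CPM on day 0, 38.5, 10.5 and 44.3 CPM on day 1.5, and 39.4, 17.1 and 50.7 CPM on day 3.5. Day 0 animal 1 alone was above all other animals, and the rest overlapped. Edn1 was 164, 174, 152 and 107 CPM on day 0, 119, 98.0 and 241 CPM on day 1.5, and 135, 169 and 128 CPM on day 3.5, likewise with overlap. The log2 fold changes against day 0 were -0.39 ± 0.68 and -0.20 ± 0.68 for Nos3 and -0.03 ± 0.31 and -0.11 ± 0.31 for Edn1. That of Nos3 on day 1.5 turned to 0.32 in the mean over cells of log2(CPM + 1) and to 0.51 in that of the deposited values, without passing by limma. Read next to Klf2, neither the level of Nos3 nor that of Edn1 differed between days by more than the spread of the animals.

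By edgeR 0 of the 6 genes passed in the comparisons of all ECs, where 0% of the 17585 genes tested did so in each of the 3. At an unadjusted p under 0.05, 1 of the 6 (Klf2) was counted on day 1.5 against day 0, 1 (Klf2) on day 3.5 against day 0 and 0 between the later days, and over all genes 1422, 1541 and 799. DESeq2 called 360, 475 and 124 genes and none of the 6. In simulated data the test of day 1.5 against day 0 recovered 0 of 200 genes changed 2-fold. A count of 0 therefore does not exclude a change of that size. Of all genes, 4.7% had every day 1.5 animal above every day 0 animal, as Klf2 and Klf6 did, and 4.87% every day 3.5 animal, as Klf2 did.

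Other genes of the same pathways did not pass either, with 0 called by edgeR in each of the 9 lists on both days. At an unadjusted p under 0.05 the lists had, in the order given here, 1, 2, 1, 0, 1, 1, 4, 5 and 4 genes on day 1.5 and 0, 1, 1, 1, 1, 2, 1, 1 and 3 on day 3.5. The median log2 fold changes were -0.12 and -0.19 on days 1.5 and 3.5 for 11 of 12 flow-induced genes tested, beside -0.05 and -0.06 for all genes. Gja4, a gap junction protein of arterial ECs, had the smallest p of that list on day 1.5 (380 to 757 CPM in the mean, log2 fold change 0.93 ± 0.39, adjusted p = 0.589), followed by Gja5 (1.46 ± 0.69) and the sphingosine receptor gene S1pr1 (-0.34 ± 0.21). On day 3.5 these were Cyp1a1 (-4.42 ± 2.07), Hmox1 (-1.74 ± 0.93) and Tek (-0.38 ± 0.21). Genes of disturbed flow and inflammation had medians of -0.15 and -0.07 (11 of 13 tested). Sele, an adhesion receptor for leukocytes, was listed at 0 in the day 0 animals and had means of 4.29 and 0.221 CPM later. Vcam1 was at 1.05 ± 0.75 on day 1.5, and Icam1 (-0.24 ± 0.22) and Angpt2 (-0.82 ± 0.74) on day 3.5.

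The 16 genes around nitric oxide had medians of -0.19 and -0.07. Those with the smallest p were Nostrin (-0.46 ± 0.19), Cav1 (-0.32 ± 0.17), whose product caveolin-1 binds the synthase, and Gucy1a1 (-3.14 ± 1.71) on day 1.5, and Cav1 (-0.46 ± 0.17), Asl (-1.40 ± 0.84) and Nos2 (-1.69 ± 1.34) on day 3.5. Of 6 endothelin pathway genes 2 could be tested, Ece1, the enzyme that matures endothelin (-0.34 ± 0.15 and -0.27 ± 0.15), and its receptor Ednrb (0.03 ± 0.27 and -0.62 ± 0.27). Upstream of Klf2, the 9 genes of the MEK5, ERK5 and MEF2 axis had medians of -0.33 and -0.05, led by Map2k5, which encodes MEK5 (-1.78 ± 0.71), Mef2a (-0.50 ± 0.24) and Hdac7 (-0.33 ± 0.23) on day 1.5 and by Mef2a (-0.79 ± 0.24, adjusted p = 0.444), Hdac5 (-0.91 ± 0.54) and Map2k5 (-1.12 ± 0.69) on day 3.5. The 11 flow sensors had medians of -0.08 and -0.09, with Pecam1 (-0.29 ± 0.13), Gnaq (-0.70 ± 0.33) and Pkd2 (1.02 ± 0.64) first on day 1.5 and Gna11 (-0.79 ± 0.29), Pecam1 (-0.30 ± 0.13) and Kdr (-0.44 ± 0.23) on day 3.5.

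Among other members of the Kruppel-like family (10 of 13 tested, medians -0.45 and 0.02), Klf12 (-0.79 ± 0.26), Klf9 (-1.12 ± 0.38) and Klf3 (-0.45 ± 0.17) were first on day 1.5, all with a sign opposite to that of Klf2, and Klf12 (-0.58 ± 0.26), Klf3 (-0.35 ± 0.17) and Klf16 (1.43 ± 0.94) on day 3.5. TGF-beta and BMP targets had medians of -0.62 and -0.12 (11 tested), led by the inhibitors of differentiation Id2 (-0.81 ± 0.29 and -0.84 ± 0.29) and Id3 (-0.67 ± 0.24 and -0.43 ± 0.24), with Bambi (-1.45 ± 1.09) next on day 3.5. Of 23 immediate-early genes 22 were tested (medians -0.35 and -0.27). Gadd45b (-1.54 ± 0.47), Jun (-0.60 ± 0.19) and Ier3 (-0.73 ± 0.27) were first on day 1.5, and Ier3 (-0.81 ± 0.27), Jun (-0.49 ± 0.19) and Jund (-1.55 ± 0.65) on day 3.5. The medians of these rapidly induced genes were below 0 on both days in the summed counts, and their relation to Klf2 was not tested.

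Capillary ECs gave the same values as all ECs to within the errors, since they made up 2293 of the 2479 cells. In them Klf2 was 232 to 365 CPM on day 0, 370 to 503 CPM on day 1.5 and 393 to 577 CPM on day 3.5. No day 0 animal reached a later animal. The log2 fold changes were 0.70 ± 0.23 and 0.85 ± 0.23, and 0 of the 6 genes passed by edgeR on either day, against 0.00579% of the 17281 genes tested. Between the later days 0% of genes passed (DESeq2 called 131, and before adjustment 825 had an edgeR p under 0.05). As a background to Klf2, 4.51% of genes had every day 1.5 animal above day 0, and 4.8% every day 3.5 animal.

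In non-capillary ECs the Klf2 log2 fold changes were 1.02 ± 0.82 and 0.80 ± 0.82, with SEs over 3 times those of the capillary cells, as these libraries held 8 to 34 cells. Here 0 of the 6 genes and 0% of 10257 genes passed in each of the 3 comparisons (DESeq2 called 476 genes on day 1.5, 490 on day 3.5 and 75 between them, and 1022, 1080 and 305 had an edgeR p under 0.05 before adjustment). The difference between the non-capillary and capillary response of Klf2 was 0.71 ± 0.90 on day 1.5 and 0.16 ± 0.91 on day 3.5. For this difference 0% of 17007 genes passed on either day (DESeq2 called 574 and 661, and 737 and 718 had an edgeR p under 0.05 before adjustment), and the median over all genes was 1.04 and 0.80. A difference between the classes in the response of any of the 6 genes was not detectable at this depth.

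Between the classes themselves, Nos3 was the 1 gene called of the 5 that were tested. The classes were set by the study from marker scores of the same cells, and since Edn1 is on its list of general capillary markers, the Edn1 values are a description. In capillary cells Nos3 was 73.8, 18.3, 21.8 and 22.0 CPM in the animals of day 0, 24.0, 4.84 and 37.5 CPM on day 1.5, and 31.5, 11.2 and 32.3 CPM on day 3.5. In non-capillary cells of the same animals it was 331, 21.6, 200 and 0 CPM, 201, 82.8 and 109 CPM, and 119, 88.4 and 288 CPM. It was higher in the non-capillary cells of 9 of 10 animals, and the exception, day 0 animal 4, had 8 such cells with no Nos3 read (0 of 8 cells, which allows a share of up to 37.5%). The log2 difference was 2.65 ± 0.92 (edgeR with the animal as a block, adjusted p = 0.047), where 22.3% of the 17007 genes tested passed, most of them lower in non-capillary cells (3479 of 3786), and the median over all genes was -1.82. The call was near its threshold: leaving out 1 animal at a time gave 2.39 to 3.02, and the adjusted p, 0.00603 to 0.095, stayed under 0.05 only without day 0 animal 2 or 4. In single cells, 36.6% of non-capillary ECs (68 of 186) and 11.6% of capillary ECs (266 of 2293) had a Nos3 read, at median depths per library of 202310 to 492796 and 275669 to 384923 reads. Summed lymphatic markers were 591 to 3539 CPM in non-capillary and 334 to 1223 CPM in capillary libraries. Tumour markers were 0 to 62.4 and 1.77 to 15.2 CPM, and endothelial markers 8321 to 15293 and 12381 to 19985 CPM. The part of other cells in the class difference was not tested.

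**Figure D2:**
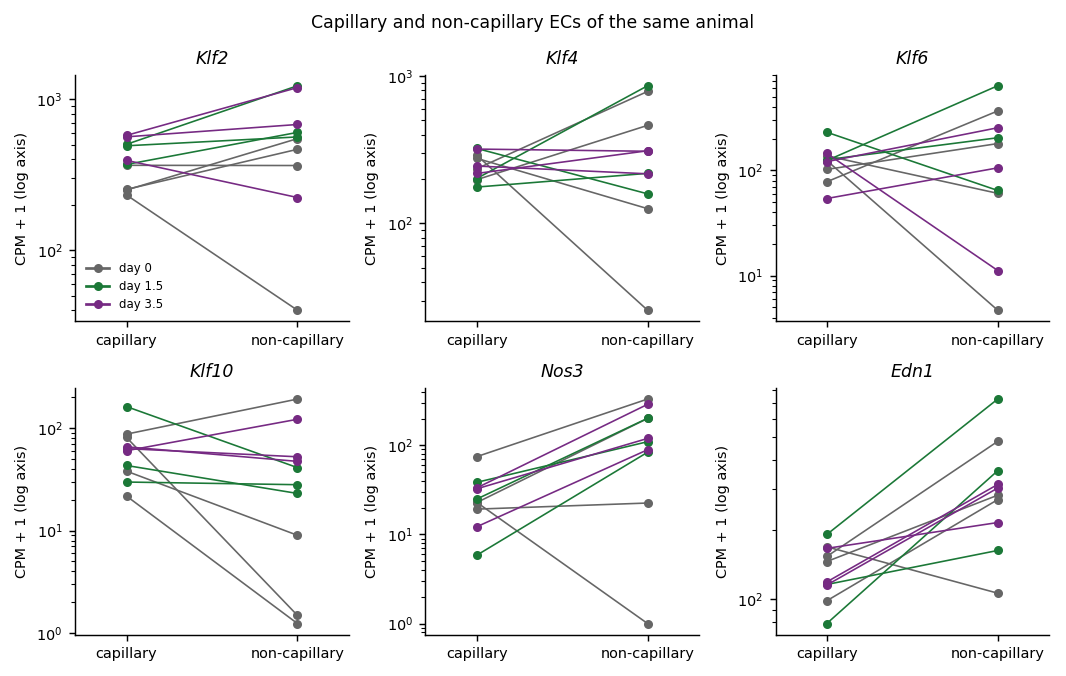
Level of each gene (CPM + 1, y axis, log scale) in capillary and non-capillary ECs, with a line joining the 2 classes of 1 animal and the colour giving the day. Lines of Nos3 and Edn1 rise towards the non-capillary cells in 9 of 10 animals, while those of Klf10 rise in 2 of 10.

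Edn1 was 77.8 to 189 CPM (median 131) in capillary cells and 105 to 728 CPM (median 290) in non-capillary cells, higher in the latter in 9 of 10 animals (log2 difference 1.63 ± 0.40, a description). Klf2 was 232 to 577 CPM (median 382) and 39.1 to 1230 CPM (median 556), higher in non-capillary cells of 7 of 10 animals (log2 difference 0.76 ± 0.36, edgeR adjusted p = 0.133). It passed with DESeq2 (1.00, adjusted p = 0.0408) and in edgeR with the top cell of each gene left out of every library (1.41, adjusted p = 0.00787), runs in which 6382 of 17007 and 7700 of 14274 genes passed. Klf4 (0.55 ± 0.50) and Klf6 (0.37 ± 0.80) were higher in 5 and 6 of 10 animals and Klf10 (-0.77 ± 0.93) in 2, none of which passed.

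In the lists, several genes passed in the same direction as Nos3. These were Gja4 (0.97) among flow-induced genes, Vcam1 (5.22) and Selp (11.6), adhesion receptors of larger vessels, Cav1 (1.03), Klf3 (1.52), Id1 (0.97), Id2 (1.31) and Id3 (1.14), and 5 immediate-early genes, Fos (1.93), Ier3 (1.51), Btg2 (1.19), Dusp1 (1.06) and Ier2 (1.01). Those lower in non-capillary cells were Slco2a1 (-1.17), Angpt2 (-3.61), Pdgfb (-4.19), Nos2 (-8.90), Nostrin (-2.16), Gucy1b1 (-8.92), Ednrb (-3.22), Cdh5 (-1.67), Klf11 (-4.20), Cebpb (-6.07) and Fosl1 (-7.44). None of the 9 genes of the MEK5, ERK5 and MEF2 axis passed by edgeR, 3 of them (Hdac5, Mapk7 and Map2k5) having an unadjusted p under 0.05, as had 6248 of all 17007 genes. List medians were -0.16 (flow-induced), 0.83 (disturbed flow), -0.73 (nitric oxide), -1.48 (endothelin), -1.34 (MEK5 axis), -1.42 (flow sensors), -0.34 (Kruppel-like), 0.83 (TGF-beta and BMP) and 0.40 (immediate-early). The median over all genes was -1.82, and these list medians, Slco2a1 and Cdh5 lay above it. With 8 to 34 cells per library, genes carried by few cells are often at 0 in the non-capillary sums, so that values far below 0 depend on how zeros are treated.

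Sorted TCs expressed the 6 genes in another order. Per length, Klf6 had the highest median over the 13 sorted libraries (30.3 CPM per kb, 20.9 to 79.6), and its lowest library was above every library of the other 5 genes except 1 of Klf4, at 22.4. Klf2 (6.47, 2.31 to 16.1), Klf10 (4.54, 2.25 to 6.81) and Klf4 (4.17, 1.63 to 22.4) overlapped, and Nos3 (0.509, 0.212 to 1.11) and Edn1 (0.192, 0 to 5.58 CPM per kb) were low. A Klf6 read was found in 87.0% of 1197 cells, a Klf10 read in 62.9%, Klf2 in 34.0%, Klf4 in 30.8%, Nos3 in 11.4% and Edn1 in 2.67%. ECs and TCs were amplified with different numbers of PCR cycles and sequenced in separate lanes, so their levels are set side by side without a test.

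Among the 3 comparisons of TCs, calls of the 6 genes were found between LTCs and extravascular TCs, that is, between cells gated for retained dye on day 3.5 and cells gated as outside the vessel on day 1.5. The gates enriched for these states, and no further selection of cells within a gate was made here. Klf2, Klf4 and Klf6 were higher in LTCs, whereas Klf10 and Nos3 did not pass the test. The gates were sorted on different days from different animals, so gate, day and sequencing batch cannot be told apart here.

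Klf6 was 154, 133, 111 and 125 CPM in the extravascular libraries of the 4 animals and 306, 349, 270 and 294 CPM in the latent ones. The groups were well separated, with means of 131 ± 18.1 and 305 ± 33.2 CPM (SD, n = 4 each). The log2 fold change was 1.08 ± 0.11 (edgeR adjusted p = 7.13e-05). Klf4, which restrains proliferation in many epithelia, was 12.7, 7.55, 4.96 and 5.83 CPM in extravascular and 68.4, 43.8, 25.3 and 29.8 CPM in latent libraries. Again the groups did not overlap (7.76 ± 3.47 against 41.8 ± 19.4 CPM, log2 fold change 2.29 ± 0.40, adjusted p = 0.00274). With any 1 library left out, both genes still passed.

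Klf2 was 4.26, 4.97, 18.5 and 6.41 CPM in extravascular and 23.7, 28.6, 25.0 and 29.7 CPM in latent libraries. The 4 latent libraries lay close together above the others, and extravascular replicate 3 stood apart from its group. The means were 8.54 ± 6.70 and 26.7 ± 2.84 CPM, and the log2 fold change was 1.52 ± 0.38 (edgeR adjusted p = 0.0261). This call was less firm than those of Klf4 and Klf6. The adjusted p was 0.000139 (log2 fold change 2.21) without extravascular replicate 3, but 0.0505 to 0.0761 when any other library of the 2 gates was left out. It was 0.084 (1.28) over cells with at most 5% mitochondrial reads, and 0.0557 (1.35) without TCs that carried a read of an endothelial or immune marker (below).

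**Figure D3:**
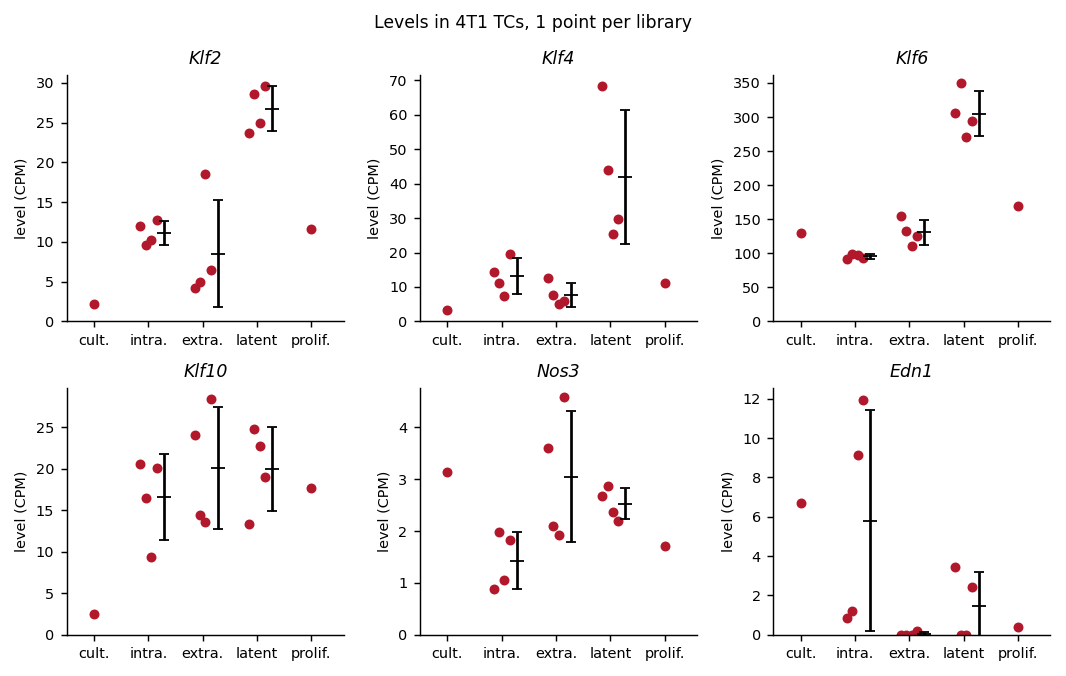
Level of each gene (CPM, y axis, separate scale per panel) in TCs by group, with 1 point per animal and a dash with error bars for the mean and SD of the 3 gates with 4 animals (bars cut at 0); the proliferative and culture pools are single points. Latent points of Klf2, Klf4 and Klf6 lie above all extravascular points (for Klf6, 270 to 349 against 111 to 154 CPM).

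Detection followed the levels. In thinned cells a Klf2 read was expected in 14.7% of extravascular cells and 34.9% of LTCs (means over animals), a Klf4 read in 11.2% and 37.5%, and a Klf6 read in 69.1% and 88.3%. Unthinned means were 23.7% and 45.7% for Klf2, 15.9% and 46% for Klf4, and 78.6% and 92.7% for Klf6. Thinning left out 12 extravascular and 20 latent cells, and the median number of genes per cell was 5721 to 6080.5 and 6554.5 to 6869.5 in these libraries.

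Klf10 was 24.1, 14.4, 13.5 and 28.4 CPM in extravascular and 13.4, 24.8, 22.7 and 19.0 CPM in latent libraries, with full overlap (log2 fold change -0.15 ± 0.30). Nos3 was 3.60, 2.10, 1.92 and 4.58 CPM and 2.67, 2.86, 2.37 and 2.19 CPM, also overlapping (-0.41 ± 0.38). Edn1 was at 0 in 3 extravascular libraries and 0.18 CPM in the other, and was 3.45, 0, 0 and 2.41 CPM in LTCs. It rested on 1 of 306 extravascular cells and on 8 of 329 LTCs, 4 each in replicates 1 and 4, and did not pass (edgeR adjusted p = 0.129).

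Altogether 3 of the 6 genes were called, all of them higher in LTCs, against a background of 8.57% of the 19249 genes tested called in either direction and 3.6% called higher. For the same 3 genes every latent library was above every extravascular library, which held for 10.4% of all genes. The mitochondrial share of reads moved with the gate, at 2.61 to 3.58% in extravascular and 1.61 to 2.25% in latent libraries without overlap, and 52 of 306 and 15 of 329 cells lay above 5%. Without these cells Klf4 (2.17, edgeR adjusted p = 0.00621) and Klf6 (0.99, adjusted p = 7.55e-05) passed and Klf2 did not (above). Markers of other cells moved in part with the gate. A read of Cdh5, Kdr, Emcn, Cldn5, Ptprc or Lyz2 was present in 1.33 to 4.88% of extravascular cells and 4.76 to 11.2% of LTCs per library. Lyz2, a myeloid gene, was at 221 and 128 CPM in latent replicates 1 and 4, at most 0.489 CPM in latent replicates 2 and 3, and at 0 in the extravascular libraries. Replicates 2 and 3, with Lyz2 near 0, still had a read of these markers in 5.88 and 4.76% of cells. In them Klf6 was 349 and 270 CPM, Klf4 43.8 and 25.3 CPM and Klf2 28.6 and 25.0 CPM. The part of other cell types in the latent values was not tested.

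**Figure D4:**
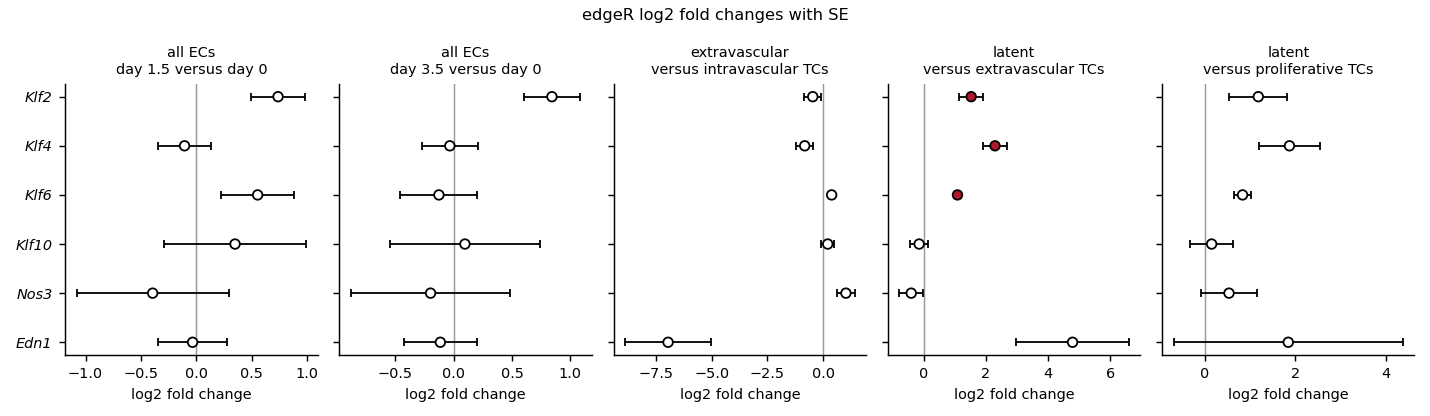
Log2 fold change of each gene (x axis, separate scale per panel) with its SE, from edgeR, for all ECs of days 1.5 and 3.5 against day 0 and for the 3 comparisons of TCs; filled symbols mark values that passed the adjusted threshold of 0.05. In the latent against extravascular comparison Klf2 (1.52), Klf4 (2.29) and Klf6 (1.08) are filled, and no value of a later day against day 0 in ECs is.

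Of the 9 lists, the immediate-early genes had most members that passed in this comparison, in which 3.6% of all genes were called higher in LTCs. Of 23 immediate-early genes 9 rose in LTCs and 0 fell, with a median of 0.78 beside 0.03 for all genes: Ppp1r15a (2.20 ± 0.21), Nr4a1 (2.05 ± 0.37), Fos (1.90 ± 0.23), Atf3 (1.84 ± 0.47), Dusp1 (1.79 ± 0.30), Btg2 (1.46 ± 0.40), Cebpb (1.26 ± 0.22), Gadd45b (1.26 ± 0.29) and Jun (0.89 ± 0.17). Fos, a subunit of AP-1, went from 79.2 to 327 CPM in the mean, and Atf3, a stress-induced factor, from 35.1 to 137 CPM. Of 11 TGF-beta and BMP targets 3 rose, Id2 (1.01 ± 0.16), Id3 (0.78 ± 0.19) and Id1 (0.74 ± 0.18), with a median of 0.42.

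Within the Kruppel-like family (10 of 13 others tested, median 0.51), Klf5, which is active in dividing epithelium, rose (37.7 to 82.0 CPM, 0.98 ± 0.16, adjusted p = 0.00173), and Klf12 fell (67.4 to 51.4 CPM, -0.53 ± 0.13, adjusted p = 0.02). The MEK5, ERK5 and MEF2 axis (9 tested, median 0.52) had 2 genes that rose, Map2k5 (7.31 to 21.1 CPM, 1.39 ± 0.23, adjusted p = 0.00222) and Mef2c, the latter at a trace level (0.0143 to 0.733 CPM). In the nitric oxide list (15 of 16 tested, median 0.61), Ddah2, which degrades inhibitors of the synthase, rose from 35.2 to 97.1 CPM (1.32 ± 0.18, adjusted p = 0.000516).

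None of the 10 flow-induced genes tested passed by edgeR (5 at an unadjusted p under 0.05, beside 4511 of all 19249 genes; median 0.77), the first being Gja4 (0.069 to 2.69 CPM, adjusted p = 0.0517), Aqp1 (1.91 to 8.54 CPM) and Thbd (0.00558 to 0.443 CPM). Likewise 0 of 13 genes of disturbed flow passed (3 at an unadjusted p under 0.05, median 0.24; Sele, listed at 0 in extravascular libraries, Vcam1, -0.53 ± 0.20, and Angpt2, 1.32 ± 0.57), 0 of 4 endothelin genes (1 at an unadjusted p under 0.05, median 2.03; Ednra and Ednrb at 0.178 and 0.229 CPM in the latent mean, and Ece1, 0.30 ± 0.34) and 0 of 11 flow sensors (3 at an unadjusted p under 0.05, median 0.27; Flt4, Kdr and Cdh5 at up to 0.971 CPM in the mean).

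Against the proliferative cells of the same day, the mean of the latent libraries was higher for all 6 genes, but the proliferative gate was used as 1 pool and has no replicate check of its own. In that pool Klf2 was 11.6 CPM, Klf4 11.3 CPM, Klf6 169 CPM, Klf10 17.7 CPM, Nos3 1.72 CPM and Edn1 0.41 CPM. The latent library of the animal that the annotation names for the pool, a pairing that rests on the annotation alone, had 29.7, 29.8, 294, 19.0, 2.19 and 2.41 CPM. All 4 latent libraries were above the pool for Klf2, Klf4, Klf6 and Nos3, whereas those of Klf10 (13.4 to 24.8 CPM) and Edn1 (0 to 3.45 CPM) lay on both sides of it. The log2 fold changes, for which the lone pool is assumed to vary like the other gates, were 0.84 ± 0.19 for Klf6 (edgeR p = 0.000588, adjusted p = 0.675), 1.87 ± 0.68 for Klf4 and 1.19 ± 0.64 for Klf2. By edgeR 0 of the 6 genes and 0% of 19249 genes passed (2 of the 6 and 978 of all genes at an unadjusted p under 0.05), whereas DESeq2 called 89 genes, among them Klf6 (0.81, adjusted p = 0.00427). Shares of cells with a read in the pool were 40.9% for Klf2 (exact 95% interval 34.6 to 47.5%), 31.6% for Klf4 (25.8 to 38.0%) and 90.3% for Klf6 (85.8 to 93.7%), where intervals cover counting error only. In the lists 0 genes were called by edgeR, and 7 had an unadjusted p under 0.05, namely Pmepa1 (1.65 ± 0.32), Slc7a1 (1.11 ± 0.29), Ppp1r15a (0.96 ± 0.34), Vcam1 (-0.79 ± 0.29), Piezo1 (0.73 ± 0.31), Klf5 (0.61 ± 0.26) and Map3k3 (1.40 ± 0.65).

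Extravascular and intravascular TCs came from the same animals and were compared next. By the study's methods, TC libraries were pooled by gate and each pool had its own lane. Gate and sequencing lane therefore cannot be told apart here either. Klf2 was 12.0, 9.56, 10.2 and 12.7 CPM inside the vessel and 4.26, 4.97, 18.5 and 6.41 CPM outside, and Klf4 14.5, 11.1, 7.42 and 19.7 CPM inside and 12.7, 7.55, 4.96 and 5.83 CPM outside. Klf4 was lower outside in each of the 4 animals, and Klf2 in 3 of 4, without passing (log2 fold changes extravascular against intravascular -0.83 ± 0.38 and -0.47 ± 0.38). Klf6 was 91.6, 99.5, 97.3 and 93.1 CPM inside, below all 4 extravascular libraries (0.38 ± 0.11, edgeR adjusted p = 0.112). This direction depended on the scale, since the mean over cells of log2(CPM + 1), which gives each cell equal weight, was lower outside (-0.11), as was the share of thinned cells with a read (69.1% against 76.6%). Klf10 was 20.6, 16.4, 9.39 and 20.1 CPM inside and overlapped (0.20 ± 0.30), and Nos3 was 0.88, 1.97, 1.05 and 1.82 CPM inside, and replicate 2 overlapped the extravascular range of 1.92 to 4.58 CPM (1.02 ± 0.39, adjusted p = 0.202).

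Edn1 was present inside the vessel and nearly absent outside. It was 0.86, 1.20, 9.16 and 11.9 CPM in intravascular libraries and 0, 0, 0 and 0.18 CPM in extravascular libraries, so that the gates did not overlap. A read was found in 19 of 325 intravascular cells (5.85%) and in 1 of 306 extravascular cells (0.327%). In the extravascular replicates at 0, 0 of 75, 0 of 80 and 0 of 69 cells allow shares of up to 4, 3.75 and 4.35%. In intravascular replicates 3 and 4 a single cell held 97.8 and 94.8% of the Edn1 reads. The difference did not pass with the gate alone in the model (edgeR adjusted p = 0.0962) and did with the animal as a block over the 8 libraries (adjusted p = 0.0459, where 0.231% of 14697 genes passed) and by DESeq2 (adjusted p = 0.0253).

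By edgeR, then, 0 of the 6 genes passed between the 2 gates in the chosen model, beside 0.951% of 19249 genes. At an unadjusted p under 0.05 there were 4 of the 6 (Klf4 and Edn1 lower, Klf6 and Nos3 higher outside), beside 3382 of all 19249 genes, and DESeq2 called 2, Klf6 and Edn1, beside 1308 of 18753 genes. The gates did not overlap in either direction for Klf6 and Edn1, and for 8.42% of all genes. In the lists Ppp1r15a (35.6 CPM inside, 11.8 CPM outside, -1.67 ± 0.21, adjusted p = 0.00682) and Mef2c (1.50 and 0.0143 CPM, adjusted p = 0.0413) fell, and no gene of the other 7 lists passed by edgeR. At an unadjusted p under 0.05 these had 2 flow-induced genes, 3 of disturbed flow, 3 of nitric oxide, 0 of endothelin, 4 flow sensors, 1 Kruppel-like gene and 3 TGF-beta and BMP targets, with Pkd1, a flow sensor of cilia (0.93 ± 0.21, adjusted p = 0.052), nearest to the threshold. The list medians were 0.31, -0.43, -0.13, -0.45, -0.08, -0.22 and -0.33 in that order, -0.20 for the MEK5 axis and 0.09 for immediate-early genes, beside -0.01 for all genes. A marker read of another cell type, as defined above, was present in 8.33 to 12.7% of intravascular cells and 1.33 to 4.88% of extravascular cells, and without these cells the log2 fold changes kept their directions, at -0.54 for Klf2, -0.89 for Klf4, 0.32 for Klf6, 0.19 for Klf10, 0.93 for Nos3 and a fitted -7.05 for Edn1, and 0 of the 6 passed by edgeR, beside 161 of 18661 genes.

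In culture, before injection, the 6 genes had a different profile. Klf2 (2.20 CPM), Klf4 (3.24 CPM) and Klf10 (2.48 CPM) were below all 13 sorted libraries, and Klf6 (129 CPM) and Nos3 (3.15 CPM) were within their range. Edn1 (6.70 CPM) was above all but 2 intravascular libraries, and was spread over more cells than in any sorted gate: 80 of 369 cells had a read (21.7%, exact 95% interval 17.6 to 26.2%). A Klf10 read was found in 12.2% of cultured cells (9.04 to 16.0%) and in 70.0% of the proliferative pool (63.8 to 75.8%). After thinning these shares were 8.68% and 45.8%, and 17.1% and 1.19% for Edn1. Culture was 1 pool with no replicate, so no test was made.

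**Figure D5:**
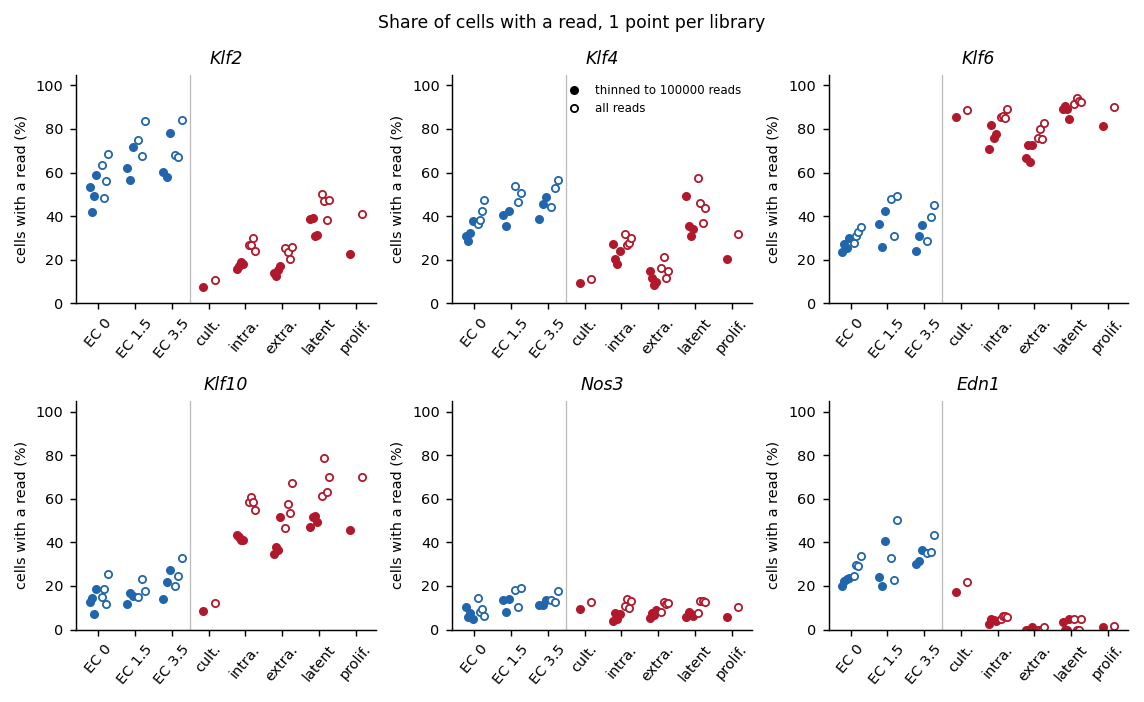
Share of cells with a read of each gene (percent, y axis) by EC day (blue) and TC group (red), with filled points expected after thinning to 100000 reads per cell and open points from all reads, 1 per animal or pool. Klf6 is found in most TCs of every group and Edn1 in ECs and cultured TCs, with sorted TC groups near 0 (thinned means 0.272 to 3.82%).

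Nos3 in TCs was at a trace level, where reads of the stretch it shares with its neighbour cannot be told apart. Over all 1566 TCs Atg9b was at 10.8 CPM and Nos3 at 2.29 CPM, a ratio of 4.71, whereas in ECs the ratio was 0.0285. An Atg9b read was found in 66.1% of the 183 TCs with a Nos3 read and in 26.7% of the other TCs. In ECs it was found in 4.19% of the 334 cells with a Nos3 read and in 0.699% of the others. The Nos3 values of TCs are uncertain for that reason, whereas in ECs Atg9b was at 1.01 CPM beside 35.5 CPM of Nos3.

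Finally, genes that varied with each of the 6 from cell to cell were sought within libraries, as the mean Pearson correlation of log2(CPM + 1) over the cells of a library. These correlations are descriptive, and the cells of a library share its depth and preparation. The genes named had the highest means of 4073 genes compared in ECs and 9749 in TCs. Several changed sign between libraries, such as Vwf with Nos3 in ECs (-0.029 to 0.318). Over 2479 ECs in 10 libraries they were low. Klf2 went with Zfp36 (0.167), Fos (0.158) and Dusp1 (0.152), which are immediate-early genes, Klf4 with App (0.187), Pdgfb (0.183) and Itga3 (0.182), Nos3 with Vwf (0.202), Jam2 (0.174) and Mgp (0.150), and Edn1 with Ptprb (0.269), Cxcl12 (0.223) and Plvap (0.220). The values of Klf6 (at most 0.150, Rps2-ps10, with Rsu1 and Tuba1a next) and Klf10 (at most 0.115, Agfg1, with Vps36 and Tbx3 next) were lower still. Among the 6 genes, Klf2 and Klf4 had the highest value in ECs, 0.144, with libraries from 0.0327 to 0.283.

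Over 1566 TCs in 14 libraries, with more genes detected per cell, the first values of Klf2, Klf4, Klf6 and Klf10 were higher than in ECs, while that of Nos3 was close to its EC value and that of Edn1 lower. Klf2 went with Atf3 (0.306), Fos (0.283) and Ndrg1 (0.283), Klf4 with Atf3 (0.372), Ndrg1 (0.319) and Ppp1r15a (0.315), Klf6 with Anxa1 (0.495), Myc (0.472) and Sox9 (0.458), and Klf10 with Btg1 (0.259), Junb (0.238) and Chek2 (0.221). Nos3 went with its overlapping neighbour Atg9b (0.209), ahead of Cdc42ep3, and Edn1, in the 9 libraries where it could be computed, with Thbs1 (0.205), Cldn4 and Plk2. Klf2, Klf4 and Klf6 went with each other at 0.261 to 0.272, and Klf10 with Klf6 at 0.180 and with Klf4 at 0.158.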

How the data were processed

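Single cells were sorted into plates and each gave a library by a modified SMART-Seq2 protocol without molecular identifiers or strand. The authors deposited estimated counts per gene and cell. Per the study's methods these came from Salmon 0.7.2 on GRCm38 with tximport, after bcl2fastq; the annotation release is not given in the sources used here. The deposited filtered tables, on a log10 scale after scaling to housekeeping genes, marked the cells the authors kept (at least 1000 genes in ECs and 2500 in TCs, with a limit of 5% on mitochondrial content; by summed reads 86 kept ECs and 139 kept TCs lay above 5%) and the capillary ECs; their values entered only 1 alternative. Each cell was sorted as a singlet, and no doublet caller was run.

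Kept cells were summed per animal and group, and the sums rounded. Tests used edgeR 4.0.16 (quasi-likelihood, TMM, filterByExpr, Benjamini-Hochberg over all genes tested, threshold 0.05) in R 4.3.3, with 3 days in 1 fit for ECs, the animal as a block between EC classes, and 13 sorted libraries in 1 fit for TCs. Alternatives used DESeq2 1.42.0 and limma 3.58.1. SE is the fold change over the square root of F. Expected shares after thinning to 100000 reads per cell were computed exactly. Gene positions and exon lengths came from GENCODE on GRCm38. Scripts were tested on simulated data with 200 genes changed by a set fold. For all ECs, day 1.5 against day 0, 0 were recovered at 2-fold and 44 at 4-fold. For latent against extravascular TCs 109 and 193 were recovered.

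The 6 genes and all lists were chosen with earlier results of these data known. Besides the 6 genes, every gene of a list that passed is named, or otherwise the 3 of smallest p, and for each gene the 3 of highest within-library correlation among genes with a read in at least 20% of cells. A few genes that this rule names are not reported here. Same-numbered EC libraries come from different animals and did not deviate together (r from -0.063 to 0.059). Intravascular and extravascular TCs with the same number come from 1 animal by the deposited annotation (r of their deviations 0.250, 0.079, 0.071 and -0.040). The proliferative gate has 4 replicates in the labels but 1 animal in the annotation. Reads are not independent molecules, and p-values measure the spread between these animals.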

Additional observations from a re-analysis of the deposited data

Results flagged for a closer look

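In 5 of 36 groups of 4 libraries, 1 library stood far from the other 3 for 1 of the 6 genes. Its gap to the nearest of them took more than the critical share of the range. Chance alone would flag about 1 in 20 groups of independent, normally distributed values. These groups are not independent, since all ECs and capillary ECs share most of their cells. In capillary ECs, day 0 animal 1 was high for both Klf2 (365 CPM, others 232 to 252 CPM) and Nos3 (73.8 CPM, others 18.3 to 22.0 CPM). In non-capillary ECs, day 0 animal 4, with 8 cells, was high for Klf10 (191 CPM). Among TCs, extravascular replicate 3 was high for Klf2 (18.5 CPM, others 4.26 to 6.41 CPM), where 1 cell held 40.9% of the reads, and extravascular replicate 4 was the 1 library of its gate with Edn1 reads (0.179 CPM, from 1 cell).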

How the results depend on the processing

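Of 1416 values of the 6 genes recomputed under an alternative, 196 changed sign, none of them a value that passed in either fit. In all and capillary ECs, Klf2 on a later day against day 0 kept its direction in every alternative run and never passed, whereas Klf4, Klf6, Klf10, Nos3 and Edn1 changed sign in 18, 10, 6, 18 and 16 of them. Of the 5 genes tested between the EC classes (Edn1, a marker used to set them, was not counted), 1 was called (Nos3). It became 2 with DESeq2 (beside 6382 of all 17007 genes), 2 with the top cell of each gene left out (7700 of 14274), the added gene being Klf2 both times, and 0 without the filter on low counts (3055 of 26722), and ranged from 0 to 1 when 1 animal was left out; the 1 in the run without day 0 animal 3 was Klf2 (adjusted p = 0.0247), not Nos3. For extravascular against intravascular TCs the 0 called became 2 with DESeq2 (beside 1308 of 18753 genes), and 1 with the mean per cell of log2(CPM + 1) (1319 of 19249), with the deposited log10 values (1454 of 18529), over cells with at most 5% mitochondrial reads (200 of 18979), and with the animal as a replicate block over the 8 libraries (34 of 14697). For latent against proliferative TCs the 0 became 1 with DESeq2. Edn1, not called between latent and extravascular TCs, did pass in an alternative run, with log2 fold changes from 0.12 to 9.14 over 18 alternatives. With the replicate number as a block in the fit of sorted TCs, Klf2 in latent against extravascular cells had a log2 fold change of 1.71 (adjusted p = 0.0204) and Edn1 in extravascular against intravascular cells -8.24 (adjusted p = 0.0708; a fitted value that depends on how zeros are treated), and the block over numbers changed no call of the 6 genes in ECs or TCs. The cause of these changes was not tested. Splitting the proliferative gate into the 4 replicates of its labels was not run, because the columns carry no such number. Nos3, and Edn1 in TCs, rest on few cells per library, and non-capillary libraries held 8 to 34 cells.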
